A study of Homo sapiens with 28 samples.

Results

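Chromosome 19 carries a large share of the human zinc finger genes, and the peaks on these genes are described here. Members were the protein-coding genes of chromosome 19 whose symbol starts with ZNF in GENCODE release 44 (hg38), each taken as its gene body plus 1 kb upstream. By this rule 249 of 19970 protein-coding genes of chromosomes 1 to 22 and X were members, and their windows joined to 7768875 bp. They were compared with the other 1227 protein-coding genes of chromosome 19 (26567805 bp) and, in places, with 267 ZNF genes of other chromosomes. The rule uses names only and no measured value. The label fits the sequences: 247 of the 249 members encoded at least 1 zinc finger of the C2H2 type on translation of their longest coding sequence, with a median of 12 fingers.

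ChIP-seq had been performed in U2OS cells, a human osteosarcoma line. Histone H3 dimethylated at lysine 36 (H3K36me2) was precipitated from wild-type cells, either not exposed to UV (2 lists of peaks) or 3 h after 20 J/m2 of UV-C (2 lists). The Flag-tagged CTD, the carboxy-terminal domain of the methyltransferase ASH1L, was precipitated with anti-FLAG antibodies from ASH1L knockout cells transfected with ASH1L-CTD, without UV (3 lists) or 3 h after the same dose (3 lists). The controls were inputs for H3K36me2 and ASH1L knockout cells transfected with empty vector for the CTD. Knockout cells came from single colonies after CRISPR/Cas9 editing, the CTD was expressed transiently from a CMV promoter, and each list came from a biological replicate according to its label. H3K36me2 was not measured in the knockout cells, and the CTD was not measured in wild-type cells, so the 2 targets differ in genotype as well.

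Most zinc finger genes of chromosome 19 arose by tandem duplication and encode DNA-binding proteins with a KRAB domain. KRAB recruits the corepressor TRIM28, which brings the H3K9 methyltransferase SETDB1 and HP1 proteins to the bound site, and many of these proteins silence transposable elements. The genes themselves are known for a mixed chromatin state, in which H3K9me3 and H3K36me3 lie over the array of fingers in the last exon. H3K36me2 is written mainly by NSD1, NSD2, NSD3 and ASH1L, and it is found over gene bodies and intergenic domains.

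The repeat on which the family is built is shown for 1 finger of ZNF45, which lies under a site with a CTD peak in every list, and for 1 finger of ZNF91, which lies in the region of lowest coverage described below. Both are 84 bases of hg38 on the minus strand, from the first cysteine of a finger to the base before the first cysteine of the next one, and capitals mark the codons of the 2 cysteines and 2 histidines that hold the zinc ion. The ZNF45 unit (chr19:43914185-43914268, finger 6 of 15) was wholly covered by CTD peaks in lists 1 and 2 without UV and in list 2 at 3 h. It was chosen for its CTD coverage, the greatest among the 84-base units inside the site, and had no covered base in the remaining CTD lists. A site joins overlapping peaks of different lists, so a peak in every list does not mean shared bases. The ZNF91 unit (chr19:23362094-23362177, finger 2 of 31) was covered in none of the 10 lists.
ZNF45: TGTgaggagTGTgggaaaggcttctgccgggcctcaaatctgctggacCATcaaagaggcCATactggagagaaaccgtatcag
ZNF91: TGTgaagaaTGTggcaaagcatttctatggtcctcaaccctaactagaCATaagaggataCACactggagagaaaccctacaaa

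The start of these genes has a different base composition from the bodies. Promoter sequences of 300 bases, from 250 before to 50 after the gene start, were found in RefSeq (GRCh38.p14) for 218 of 249 members, and all 218 matched hg38. The median was 20 CG dinucleotides per promoter, against 21 for 949 promoters of the other chromosome 19 genes. The ZNF555 promoter (chr19:2841225-2841524, plus strand) is shown because it had the highest CTD coverage of the members' promoters, and the ZNF529 promoter (chr19:36605208-36605507, minus strand) because it had the highest H3K36me2 coverage. The ZNF91 promoter (chr19:23395422-23395721, minus strand) stands for the region of lowest coverage. Capitals mark each CG, the motif searched, which reads the same on both strands.
ZNF555: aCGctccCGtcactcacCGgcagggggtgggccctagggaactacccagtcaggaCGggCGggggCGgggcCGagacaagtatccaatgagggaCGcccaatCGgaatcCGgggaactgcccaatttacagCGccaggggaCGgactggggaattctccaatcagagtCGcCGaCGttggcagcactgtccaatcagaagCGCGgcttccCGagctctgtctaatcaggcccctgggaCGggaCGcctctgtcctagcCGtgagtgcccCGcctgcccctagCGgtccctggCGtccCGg
ZNF529: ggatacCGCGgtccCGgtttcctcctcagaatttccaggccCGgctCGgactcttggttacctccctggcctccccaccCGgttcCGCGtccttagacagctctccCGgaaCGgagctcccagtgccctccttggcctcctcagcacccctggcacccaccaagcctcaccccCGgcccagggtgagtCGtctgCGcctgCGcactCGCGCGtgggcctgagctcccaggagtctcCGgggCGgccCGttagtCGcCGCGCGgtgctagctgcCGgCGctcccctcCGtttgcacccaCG
ZNF91: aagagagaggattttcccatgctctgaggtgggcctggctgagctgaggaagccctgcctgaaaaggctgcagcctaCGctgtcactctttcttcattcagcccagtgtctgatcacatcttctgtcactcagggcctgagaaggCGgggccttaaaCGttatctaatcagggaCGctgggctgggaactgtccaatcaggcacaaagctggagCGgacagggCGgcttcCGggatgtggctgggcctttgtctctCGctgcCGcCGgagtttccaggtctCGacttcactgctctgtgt

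The ZNF555 promoter held 25 CG and was covered by CTD peaks over 100%, 0% and 64% of its bases in the 3 lists without UV, and over 100% in each list at 3 h. The ZNF529 promoter held 28 CG and was wholly covered by H3K36me2 peaks in both lists without UV and in neither list at 3 h. The ZNF91 promoter held 11 CG and had no covered base in any of the 10 lists. H3K36me2 peaks touched few member promoters: 195 of the 218 were covered in no list, against 779 of 949 among the other genes. CTD peaks missed 40 of the 218 in every list, against 133 of 949. Of these 40, 28 lay in 2 neighbouring clusters described below, which hold 29 of the 218 promoters, and outside them 12 of 189 were missed.

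Each list held 500000 peaks, called with a p of 0.01 as the stated setting. The p-values recorded for the peaks reach beyond it, with a lowest −log10 p of 1.22 to 1.42 over the 10 lists. With the same number of peaks in every list, coverage says how these peaks were distributed and not how much signal there was. Chromosome 19 received 0.773% to 1.34% of the peaks of a list for H3K36me2 and 2.12% to 2.87% for the CTD. The peaks were weak, on members as on the other genes of chromosome 19. On members their median fold enrichment over control was 1.78 to 1.84 for H3K36me2 and 1.74 to 1.83 for the CTD, against 1.74 to 1.83 and 1.73 to 1.82 on the other genes, and at most 2 member peaks per CTD list reached a −log10 p of 3. All 6 CTD lists had 15 or 16 peaks on the coding exons of ASH1L, from which the construct was made, with fold enrichments up to 5.87 in the lowest list and 41.2 in the highest. The H3K36me2 lists had none there.

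H3K36me2 peaks were sparse on the ZNF genes, and sparser in the lists made after UV than in those made without it. They covered 4.07% and 4.55% of the members' bases without UV and 2.27% and 2.42% at 3 h (4.31% ± 0.339 and 2.34% ± 0.102, SD, n = 2 each). Both lists at 3 h were lower than both lists without UV. The difference was −0.88 on the log2 scale (exact two-sided permutation p = 0.333, which is the lowest that 2 lists against 2 can give, and 0.5 after Benjamini-Hochberg adjustment over 6 comparisons). The other genes of chromosome 19 were covered over 9.67% and 12.2% without UV and over 4.71% and 4.89% at 3 h, a difference of −1.17. Relative to them the members' difference was 0.30 (exact permutation p = 0.333, 0.5 adjusted), so this design could not separate the members from the rest of the chromosome in their difference with UV. ZNF genes of other chromosomes were covered over 10.2% and 10.3% without UV and 8.46% and 8.43% at 3 h, a difference of −0.28.

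In each H3K36me2 list the members' bases were covered less than those of the other chromosome 19 genes. The difference was 2.38-fold and 2.67-fold without UV and 2.07-fold and 2.02-fold at 3 h. The mean log2 ratio was −1.18, lower in 4 of 4 lists (two-sided exact sign-flip permutation p = 0.125, the smallest that 4 lists allow, 0.375 adjusted over 6). They were also below the ZNF genes of other chromosomes, by 2.25-fold to 3.72-fold (mean log2 ratio −1.55, lower in 4 of 4 lists, exact sign-flip permutation p = 0.125, unadjusted). In peak centres, members held 0.732 ± 0.0628 per 10 kb in unirradiated cells and 0.470 ± 0.00819 at 3 h (SD of 2 lists), and the other chromosome 19 genes 1.2 ± 0.175 and 0.613 ± 0.00985.

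The CTD covered the members more widely and showed no change with UV beyond the spread of its lists. CTD peaks covered 12.4%, 9.86% and 8.47% of the members' bases without UV and 10.1%, 10.6% and 11.1% at 3 h (10.2% ± 1.99 and 10.6% ± 0.489, SD, n = 3 each). The 3 lists at 3 h lay inside the range of the 3 lists without UV. The log2 change was 0.07 (exact permutation p = 0.7, also after adjustment over 6). The CTD lists at 3 h were called against pooled controls and those without UV against single ones, so the way of calling and the UV cannot be told apart. In each CTD list the members were below the other genes of chromosome 19, by 1.38-fold to 2.31-fold. The mean log2 ratio was −0.75 (lower in 6 of 6 lists, exact sign-flip permutation p = 0.03125, the smallest that 6 lists allow, and 0.1875 adjusted over 6). It was −0.39 without clusters 4 and 5 described below, and turned to 0.26 with the few peaks of −log10 p of 3 or more.

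The other genes of chromosome 19 varied widely between CTD lists, from 11.7% to 25.6%. List 1 without UV (22.9%) and list 3 at 3 h (25.6%) stood apart, and these also had the largest shares of peaks on chromosome 19. Leaving out the first gave a mean log2 ratio of −0.72 and leaving out the second −0.66. The members' change with UV relative to the other genes was −0.13 (exact permutation p = 0.7) and turned to 0.07 without list 3 at 3 h. ZNF genes of other chromosomes were covered over 9.90% to 12.3%, close to the members, with a mean log2 ratio of −0.12 (lower in 5 of 6 lists, exact sign-flip permutation p = 0.0625, unadjusted).

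**Figure D1:**
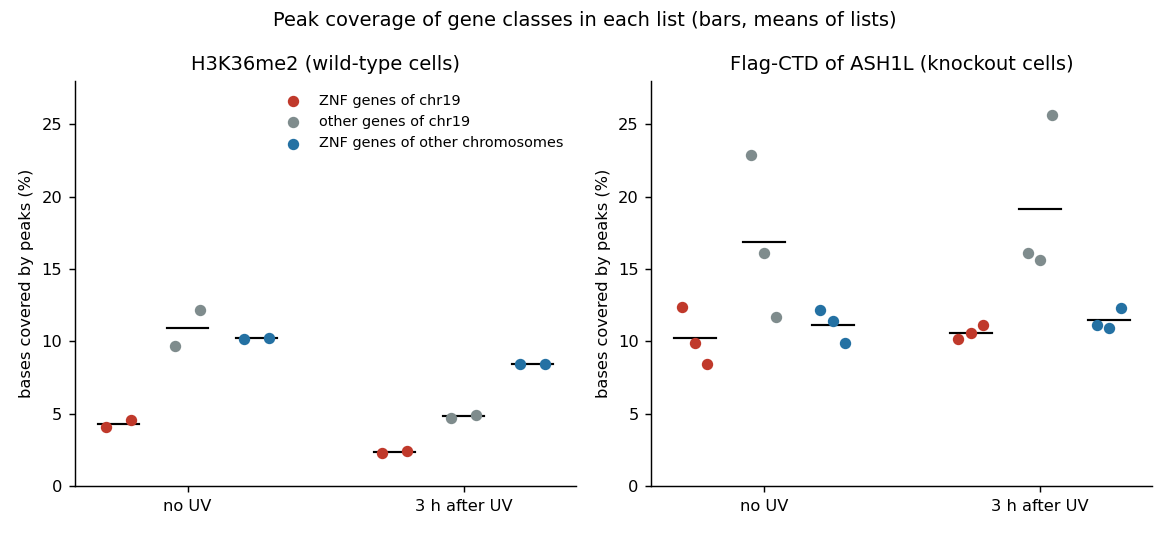
Percent of bases covered by peaks (y axis) for ZNF genes of chromosome 19, other genes of chromosome 19 and ZNF genes of other chromosomes, without UV and 3 h after UV. Each point is 1 list and each bar the mean. In the H3K36me2 panel the members lie at 2.27% to 4.55%, below both other classes in all 4 lists, and in the CTD panel they lie at 8.47% to 12.4%, below the other chromosome 19 genes in all 6 lists.

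Of the 249 members, 236 lay in 13 clusters, defined as at least 3 members with gaps of at most 250 kb. Coverage was uneven along this series of clusters. Members of cluster 4 (8 genes, ZNF101 to ZNF486) and cluster 5 (29 genes, ZNF737 to ZNF254) were almost without peaks in every list. These neighbouring clusters span chr19:19667796-24129968 (4.46 Mb), on the short arm next to the centromere, and hold the primate-expanded genes ZNF91, ZNF93 and ZNF43. ZNF91 and ZNF93 are known repressors of SVA and LINE-1 retrotransposons. The following contrast was noticed in the data and is a description.

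In the 37 members of clusters 4 and 5, H3K36me2 peaks covered 0.339% and 0.644% of the summed windows without UV and 0.457% and 0.506% at 3 h. In the other 212 members they covered 5.06% and 5.57%, then 2.80% and 2.89%. CTD peaks covered 0.0629%, 0.180% and 0.326% of the 37 members' windows without UV and 0.138%, 0.132% and 0.162% at 3 h. In the other 212 members they covered 11.1% to 16.1%. No list of either target reached 1% in the 37 genes. Their mean over 6 CTD lists was 0.167% ± 0.0876 against 13.4% ± 1.67 in the 212, and over 4 H3K36me2 lists 0.486% ± 0.126 against 4.08% ± 1.44 (SD). The highest CTD mean among the 37 was 0.718%, in ZNF101, while the lowest among the 212 was 2.18%.

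ZNF91 had CTD values of 0%, 0.203% and 0% without UV and 0%, 0.158% and 1.07% at 3 h. ZNF93 had a CTD peak in 1 of 6 lists only (1.57%, list 3 without UV) and no H3K36me2 peak. ZNF43 had H3K36me2 over 1.75% and 2.23% without UV and 0.380% and 0% at 3 h. ZNF257, ZNF492, ZNF493, ZNF676 and ZNF681, all of cluster 5, had no base under a CTD peak in any list. ZNF14 and ZNF253 of cluster 4 and ZNF208 of cluster 5 had no H3K36me2 peak in any list, and CTD means of 0.106%, 0.187% and 0.162%. Of the 37 genes, 19 had no H3K36me2 base in any list, and the highest mean was 3.59% in ZNF675.

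The 3 other protein-coding genes between these members had 0.380% for H3K36me2 and 0.181% for the CTD. Low values also reached beyond the outermost member of cluster 4: LPAR2, a lysophosphatidic acid receptor, GMIP and ATP13A1 had CTD means of 2.26%, 0.906% and 1.96%, whereas the neighbouring PBX4, a homeobox gene, and CILP2 had 13.6% and 17.7%. In bins of 25 kb, chr19:19575001-19600000 was covered by CTD peaks over 19.8% and by H3K36me2 peaks over 26.3%, and the next bin over 0.404% and 1.77%. Across the genome, 419 of 5747 bins of 500 kb (7.29%) had a mean CTD coverage below 1%, of which 173 were on the X chromosome and 67 on chromosome 13, and all 8 bins inside the stretch were among them. The 37 members' windows had a GC content of 40.2%, against 44.3% in the 212. Of their bases, 93.7% were alignable, meaning that 100-base reads taken there from the genome returned to their place with a mapping quality of 30 or more, against 95.4% in the 212. The number of reads along the stretch was not measured here.

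Clusters 4 and 5 and the 3 genes between them were then left out, a choice made after seeing these values. The mean log2 ratio of members to other chromosome 19 genes was then −0.87 for H3K36me2 (lower in 4 of 4 lists, exact sign-flip permutation p = 0.125). For the CTD it was −0.39 (exact sign-flip permutation p = 0.03125). Both p-values are unadjusted and the smallest these numbers of lists allow, and they belong to a comparison chosen from the data. The CTD value was −0.75 with the clusters included. The changes with UV moved little, to −0.91 for H3K36me2 and 0.07 for the CTD.

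The remaining clusters had peaks of both targets. For H3K36me2 without UV they ran from cluster 2 (12 genes around ZNF317 to ZNF846, 1.93% ± 0.416) to cluster 11 (7 genes, ZNF628 to ZNF581, 10.8% ± 5.62, SD over 2 lists). At 3 h clusters 2 and 11 had 1.01% ± 0.00453 and 2.78% ± 0.222, and cluster 8 had the highest mean, 4.88% ± 3.04. Cluster 11 was also the richest in GC (59.5%) and had the highest CTD mean without UV (22.2% ± 11.8, SD, n = 3). Both lists at 3 h were below both lists without UV for H3K36me2 in 10 of the 11 remaining clusters. CTD coverage of the 3 largest clusters was 14.9% ± 4.38 without UV and 16.6% ± 0.501 at 3 h in cluster 13 (43 genes), 13.1% ± 2.17 and 13.2% ± 1.45 in cluster 10 (40 genes), and 13.9% ± 2.32 and 13% ± 0.465 in cluster 7 (26 genes). None of these 3 differences exceeded the SD of the lists without UV.

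Base composition differed between the classes and was considered next. The median GC content of a window was 43.9% for members and 54.2% for other chromosome 19 genes, and median window lengths were 27097 and 14781 bp. Over the 247 members with a window of at least 5 kb, mean CTD coverage was higher with higher GC (Spearman rho 0.53) and lower with greater length (−0.37), and H3K36me2 coverage was higher with higher GC (0.33). Coverage by the 2 targets had a rho of 0.42. These are correlations across genes, which are not independent replicates, and the 37 genes near 0 are among them. Between lists of a target, the rho over members was 0.53 to 0.70 for H3K36me2 and 0.39 to 0.59 for the CTD. Over 1076 other genes of chromosome 19 it was 0.63 to 0.78 for H3K36me2 but −0.00135 to 0.23 for the CTD, and the rho between the 2 targets was 0.04.

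At equal GC, the CTD comparison depended on clusters 4 and 5. With all members, those of 35 to 40% GC (37 genes) had 5.15% ± 0.212 without UV against 11.4% ± 1.1 in 5 other genes, and those of 40 to 45% GC (122 genes) 9.86% ± 1.0 against 12.7% ± 2.26 in 77. At 3 h the same bins had 4.76% ± 0.986 against 11.4% ± 1.57, and 9.75% ± 0.267 against 12% ± 0.161, with no overlap of lists in either (SD, n = 3 each). Without clusters 4 and 5 the values were closer. In windows of 35 to 40% GC they were 12.2% ± 0.596 for 15 members and 11.4% ± 1.1 for the 5 other genes without UV, and 11.4% ± 2.28 and 11.4% ± 1.57 at 3 h. In windows of 40 to 45% GC it covered 12.6% ± 1.38 of 108 members and 13.8% ± 2.44 of 74 other genes without UV, and 12.5% ± 0.363 and 13% ± 0.181 at 3 h (SD, n = 3 each). In windows of 45 to 50% GC it covered 14.1% ± 4.38 of 62 members and 15.3% ± 3.97 of 154 other genes without UV, and 15.0% ± 2.0 and 16.7% ± 2.80 at 3 h. Of the 4 differences between 40 and 50% GC, the one at 3 h in windows of 40 to 45% GC exceeded the SD and its lists did not overlap, and the other 3 were smaller than the SD of either class.

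H3K36me2 was lower in the members in windows of 40 to 50% GC, where most of them lie, also without clusters 4 and 5. In windows of 40 to 45% GC it covered 4.91% ± 0.0726 of the members and 11.0% ± 0.0347 of the other genes without UV, and 2.79% ± 0.243 and 7.83% ± 0.241 at 3 h (SD, n = 2 each). In windows of 45 to 50% GC the values were 5.46% ± 0.640 and 10.2% ± 0.509 without UV, and 2.82% ± 0.244 and 5.82% ± 0.155 at 3 h. In both bins and both conditions, every list of the members lay below every list of the other genes. In windows of 35 to 40% GC, 15 members had 4.21% ± 0.0583 against 7.76% ± 1.15 in 5 other genes without UV, and 3.22% ± 1.47 against 5.17% ± 1.42 at 3 h, where the lists overlapped. Above 50% GC the classes overlapped without UV but not at 3 h. In windows of 50 to 55% GC, 10 members had 9.52% ± 1.2 without UV against 9.88% ± 1.55 in 474 other genes, and 3.24% ± 1.01 against 4.01% ± 0.0655 at 3 h. In windows of 55 to 60% GC, 13 members had 9.40% ± 3.58 against 11.6% ± 3.32 in 377 other genes, and 2.05% ± 0.712 against 3.73% ± 0.174 at 3 h. In both bins each member list at 3 h lay below each list of the other genes. The order was the opposite in the 4 members above 60% GC, with 25.8% ± 10.8 against 14.4% ± 5.74 in 137 other genes, and 7.29% ± 2.88 against 3.02% ± 0.588 at 3 h. Alignable bases made up 95% of the members' windows and 96.4% of those of the other genes, and restricting the percentages to them gave a mean log2 ratio of members to other genes of −1.15 for H3K36me2 and −0.74 for the CTD.

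Window length was matched in the same way, again without clusters 4 and 5. In windows of 20 to 40 kb the CTD covered 13% ± 1.97 of 89 members and 17.7% ± 6.65 of 264 other genes without UV, with overlapping lists. At 3 h it covered 13.3% ± 0.482 and 19.9% ± 5.86 (SD, n = 3), with no overlap. The CTD lists overlapped without UV in all 4 bins of length, and at 3 h the members were below the other genes with no overlap in the 3 bins from 10 kb upwards. For H3K36me2 the members were below the other genes with no overlap in these 3 bins in both conditions, for example 4.32% ± 0.0289 against 10.0% ± 2.02 without UV at 20 to 40 kb. In windows under 10 kb the classes overlapped for both targets in both conditions, with 10.3% ± 2.04 of 23 members and 11.3% ± 3.06 of the other genes for H3K36me2 without UV, and 18.8% ± 7.66 and 18.3% ± 5.82 for the CTD.

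Zinc fingers are mostly encoded by 1 long exon: in 242 of the 249 members every finger lay in the last coding exon. H3K36me2 was lowest there. Its peaks covered 1.82% ± 0.328 of the members' last coding exons without UV and 0.903% ± 0.0786 at 3 h, against 4.57% ± 0.337 and 2.53% ± 0.143 of the rest of the windows (SD, n = 2 each). In the other genes of chromosome 19 the last coding exon had 9.77% ± 2.40 and 3.62% ± 0.252, and the rest 10.9% ± 1.72 and 4.86% ± 0.102. The log2 ratio of last exon to rest was −1.41 in members and −0.30 in other genes. The difference of −1.11 ranged from −1.26 to −0.87 over the 4 lists and was negative in all (exact sign-flip permutation p = 0.125, the smallest possible, 0.25 adjusted over 4 comparisons). The members' last coding exons had a GC content of 41.2% and 95.3% alignable bases, and the rest of their windows 43.0% and 94.8%. For the CTD the members' last coding exons were covered like the rest (10.1% ± 1.79 against 9.79% ± 1.93 without UV, SD, n = 3), and the difference to other genes was −0.03 (exact permutation p = 0.6875).

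CTD coverage was instead higher at the members' gene starts. Within 1 kb of the start it was 16.5% ± 3.44 without UV and 17.6% ± 3.25 at 3 h, against 9.79% ± 1.93 and 9.99% ± 0.426 in the rest (SD, n = 3 each). The other genes had 18.5% ± 5.08 and 21.9% ± 7.01 at the start and 16.6% ± 5.63 and 18.8% ± 5.41 in the rest. The log2 ratio of start to rest was 0.78 in members and 0.19 in other genes, a difference of 0.59 that ranged from 0.44 to 0.76 over 6 of 6 lists (exact sign-flip permutation p = 0.03125, 0.125 adjusted over 4). GC content rose over the same bases, from 44.1% at 1 to 2 kb before the members' start to 55.5% in their first kb, and its part in the result was not tested. For H3K36me2 the difference at the start was 0.14 (exact permutation p = 0.25).

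The profile of H3K36me2 around the members' start had a dip between 2 shoulders. Without UV it was 9.46% ± 0.348 at 1 to 2 kb upstream, 4.54% ± 0.882 in the first kb of the gene, 11.8% ± 0.505 at 1 to 2 kb inside and 3.01% ± 0.239 at 10 to 20 kb inside (SD, n = 2). At 3 h the same positions had 5.13% ± 0.0449, 1.28% ± 0.257, 4.15% ± 0.721 and 1.80% ± 0.0962. In the other genes the dip was shallower: 15.4% ± 1.96, 10.7% ± 1.65 and 15.5% ± 2.24 without UV at the first 3 of these positions. At 10 to 20 kb inside they still had 9.17% ± 1.59.

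Gene by gene, the H3K36me2 change was tested with limma on log2(percent covered + 1), over all genes with a covered base in at least 2 lists, with p-values adjusted over all of them. Of the 249 members, 179 passed that filter and 70 did not. The test called 5 members lower at 3 h and 0 higher. That is 2.79% of those tested, and the background was 3.83% of 15490 genes lower and 0.181% higher. At an unadjusted p under 0.05 there were 44 of 179 members (24.6%), the 5 included, against 4488 of all 15490 genes (29.0%). Both lists at 3 h were below both lists without UV in 88 of 179 members (49.2%, background 51.2%) and above in 11 (6.15%, background 7.83%). The median log2 difference was −0.71 in members, −0.42 over all genes tested and −1.42 in the other genes of chromosome 19. With each list centred on its median over genes, the median turned to 0.03 in members and 0.31 over all genes tested. A filter on covered bases lets a gene pass through its higher group alone, so these counts describe the genes that passed.

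All 5 called members had H3K36me2 peaks in both lists without UV and none at 3 h. They therefore passed the filter only through the lists in which they were high, and without the filter none was called. ZNF497 was covered over 10.7% and 11.4% without UV (log2 difference −3.59 ± 0.34 SE, limma adjusted p = 0.044). ZNF223 was covered over 7.40% and 7.45% (−3.07 ± 0.32, limma adjusted p = 0.044). ZNF581 had 4.99% and 7.29%, ZNF480 4.28% and 5.71%, and ZNF554 4.51% and 5.50%, with log2 differences of −2.82, −2.57 and −2.58. The windows of ZNF223 and ZNF581 lie wholly within those of other genes, so their peaks cannot be assigned to 1 gene. Under most other settings given in the closing section no member was called.

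The largest negative differences not called were in short genes rich in GC. ZNF414 was covered over 33.5% and 50.7% without UV and 14.8% and 0% at 3 h (log2 difference −3.41 ± 1.48 SE, limma adjusted p = 0.24). ZNF296, whose mouse counterpart is known from work on pluripotency, had 8.01% and 35.5%, then 3.06% and 0% (−3.17 ± 1.08, limma adjusted p = 0.166). ZNF444, a SCAN-domain protein, had 9.52% and 12.7%, then 0% and 0.960% (−3.10 ± 0.51, limma adjusted p = 0.058). In these 3 genes the lists did not overlap, but in the first 2 the replicates of a condition differed widely.

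The members with the largest positive differences did not pass the test. ZNF813 had 0.677% and 0.711% without UV and 6.92% and 11.5% at 3 h (log2 difference 2.55 ± 0.41 SE, limma adjusted p = 0.057). ZNF625 had 0% and 0%, then 5.93% and 3.25% (2.44 ± 0.40, limma adjusted p = 0.057), and the read-through gene ZNF625-ZNF20, which shares those bases, 1.57. ZNF749 and ZNF799 had differences of 1.49 and 1.27. In each of these 5 both lists at 3 h were higher.

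H3K36me2 was highest, on average over 4 lists, in ZNF575 (27.0%), ZNF358 (27.0%), ZNF414 (24.8%), ZNF792 (21.0%) and ZNF582 (17.3%), among members with windows of 5 kb or more. ZNF575 had 41.5% and 29.9% without UV and 20.9% and 15.6% at 3 h. ZNF582, a gene known to be methylated in cervical cancer, went the other way, with 9.71% and 16% without UV and 16.4% and 27.1% at 3 h. ZNF132 and ZNF177 had no H3K36me2 peak in any list, although CTD peaks covered 17.8% and 4.14% of their windows. In all, 35 members (14.1%) had no H3K36me2 base in any list and 98 (39.4%) had some in every list. Among the other chromosome 19 genes these shares were 17.1% and 35.3%.

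For the CTD, 228 members passed the filter and 0 were called in either direction, with a limma background of 0.021% higher and 0.0157% lower over 19052 genes. At an unadjusted p under 0.05 there were 7 of 228 (3.07%), against 649 of all 19052 genes (3.41%). The lists did not overlap in 13 members that were higher at 3 h (5.70%, background 5.39%) and in 9 that were lower (3.95%, background 2.5%). The median log2 difference was 0.05 in members and 0.08 over all genes tested, and −0.07 and −0.04 with centred lists.

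The largest CTD differences had wide errors. ZNF579 was covered over 32.0%, 0% and 0% without UV and 30.1%, 22.8% and 33.2% at 3 h (log2 difference 3.20 ± 1.41 SE), and 1 of its lists without UV reached the level at 3 h. ZNF575 had 13.7%, 8.86% and 0%, then 22.3%, 33.3% and 32.2% (2.51 ± 1.03), with no overlap. ZNF441 had 1.3%, 0% and 7.83%, then 13.8%, 8.21% and 12.6% (2.17 ± 0.84), also with no overlap. ZNF799 and ZNF324B had log2 differences of 1.92 and 1.60, and their lists overlapped.

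In the other direction, ZNF230 had 27.3%, 34.3% and 19.6% without UV and 4.83%, 2.51% and 17.4% at 3 h (log2 difference −1.92 ± 0.65 SE). ZNF497 had 41.3%, 20.6% and 21.3%, then 10.8%, 5.70% and 13% (−1.40 ± 0.43). The lists did not overlap in these 2 genes. ZNF414, ZNF556 and ZNF233 had differences of −1.59, −1.39 and −1.36, with overlapping lists. ZNF497 and ZNF414 were among the 5 most negative differences for both targets. Of the genes above, none passed the limma test for the CTD.

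The highest CTD means over 6 lists were those of ZNF304 (28.3%), ZNF576 (26.6%), ZNF222 (26.4%), ZNF792 (26.1%) and ZNF221 (25.4%), again among windows of 5 kb or more. ZNF221 and ZNF222 are neighbours in cluster 9. Single lists varied: ZNF576, which lies wholly within other gene windows, had 60.9%, 8.55% and 16.3% without UV and 14.1%, 20.7% and 39.1% at 3 h. ZNF792 was among the highest for both targets. In all, 7 members (2.81%) had no CTD base in any list, all in clusters 4 and 5, and 192 (77.1%) had some in every list. Among the other chromosome 19 genes these shares were 0.733% and 81.2%.

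ZNF274, ZNF331 and the KRAB corepressor TRIM28 were looked at by name. ZNF274, known to guide SETDB1 to the finger exons of ZNF genes, had H3K36me2 over 0.616% and 6.68% without UV and 0% and 0.844% at 3 h (log2 difference −1.38, limma adjusted p = 0.419). Its CTD coverage was 23.5%, 15.1% and 15.0% without UV and 18.5%, 16.6% and 22.5% at 3 h (0.12). ZNF331, an imprinted gene, had H3K36me2 over 2.32% and 3.91%, then 2.36% and 0.731% (−0.75), and its CTD difference was 0.31. TRIM28, at the end of the long arm, had no H3K36me2 peak in any list, and CTD coverage of 15.6%, 2.42% and 2.72% without UV and 27.4%, 18.4% and 7.90% at 3 h (1.52 ± 0.78 SE, not called by limma). For all 3, the lists of the 2 conditions overlapped.

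The protein partners of these factors were taken as 25 genes of the KRAB silencing machinery. Of these, 18 were tested for H3K36me2 and 25 for the CTD, with 0 called higher and 0 lower in both. The backgrounds over all genes were 3.83% lower and 0.181% higher for H3K36me2, and 0.0157% lower and 0.021% higher for the CTD. Gene lists of this size can hold no called gene at such shares. Among 16 genes that write, read or erase H3K36 methylation, 13 were tested for H3K36me2, with 0 higher and 1 lower, beside a background of 3.83% lower. The called gene was DNMT3A, the de novo DNA methyltransferase that reads H3K36me2, with 18% and 18.6% without UV and 3.18% and 2.73% at 3 h (log2 difference −2.29 ± 0.24 SE, limma adjusted p = 0.044). With the replicate block, with untransformed percentages or with lists centred on their medians, limma called 0 of all 15490 genes, DNMT3A included. For the CTD 15 were tested and 0 called. The median log2 differences of the first list were −0.20 and 0.02, and those of the second −0.39 and −0.06.

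Peaks recurred at few places on the members. Overlapping H3K36me2 peaks merged into 1206 sites on ZNF genes, of which 68 (5.64%) had a peak in all 4 lists. CTD peaks merged into 3702 sites, of which 87 (2.35%) had a peak in all 6 lists. The H3K36me2 sites with the highest minimum fold enrichment lay upstream of ZNF611 (chr19:52735505-52736948, 2.05 to 2.22 over the 4 lists), over a coding exon of ZNF565 (chr19:36183663-36188607, 2.04 to 2.73) and upstream of ZNF526 (chr19:42218129-42219697, 2.04 to 2.44). The corresponding CTD sites lay over coding exons, in ZNF17 (chr19:57412801-57418943, 1.83 to 2.06), in ZNF45 (chr19:43913568-43916602, 1.83 to 2.23) and in ZNF850 (chr19:36748908-36752095, 1.81 to 1.97). These coordinates are those of hg38. The finger unit of ZNF45 printed above lies within its site.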

How the data were processed

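The deposited data were 10 lists of broad peaks, 1 for each replicate. Per the labels and methods, the authors used Trim Galore 0.6.5 for trimming and bwa mem 0.7.17-r1188 for alignment to hg38, chromosome Y left out, then removed duplicates, blacklisted regions and alignments with a mapping quality under 30 (samtools 1.7, bedtools 2.29.2, Picard), and called peaks with MACS2 2.2.7.1 at a p of 0.01. Inputs were pooled over duplicates for H3K36me2; empty-vector controls of the CTD were pooled at 3 h and single without UV. Each deposited peak carries a fold enrichment (MACS2's ratio of ChIP over control) and −log10 p and −log10 q values from the authors' calling. All 10 lists hold 500000 peaks and carry no read depth, so precision rests on the spread between lists.

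For each gene (GENCODE release 44, body plus 1 kb upstream) the percent of bases under a peak and the peak centres were computed. Fold enrichment and −log10 p served to filter and describe peaks. Classes were compared on log2 percentages by two-sided exact permutation of the lists between conditions, or of the sign of each list's ratio between classes. Genes were tested with limma 3.58.1 (trend, 1 fit for each target over all genes with a covered base in at least 2 lists) on log2(percent + 1), where the pseudocount of 1 shrinks low values, with Benjamini-Hochberg adjustment and a threshold of 0.05. Named genes were the 5 highest, 5 lowest, and 5 largest rises and falls of each target (windows of at least 5 kb), the genes called, and ZNF274, ZNF91, ZNF93, ZNF43, ZNF331 and TRIM28. Members, lists of genes and tests were chosen with earlier results of these data known. Bases where 100-base reads taken every 50 bases of hg38 aligned back with mapping quality 30 or more (bwa 0.7.19-r1273) were called alignable. Overlap counting, the exact tests and limma were tested on simulated data. Software was Python 3.11.15, NumPy 2.4.6, pandas 2.3.3, SciPy 1.17.1, R 4.3.3, bedtools 2.31.1 and samtools 1.23.1. The study's remaining experiments were not analysed here.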

Additional observations from a re-analysis of the deposited data

How the results depend on the processing

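The lists carry no read depth and were called at a lenient threshold, so coverage cannot separate a lost mark from a peak displaced by stronger ones elsewhere, and weak peaks carry most values. With 2 or 3 lists for each condition, the class comparisons of UV could not pass 0.05. Replicate numbers did not pair the lists: the deviations of lists with the same number had Pearson correlations of 0.0034 for H3K36me2 and −0.092, −0.0043 and −0.185 for the CTD. With the replicate number as a block, the changes of members with UV had exact p-values of 0.5 for H3K36me2 and 0.75 for the CTD, those relative to other genes 0.5 and 1, and limma called 0 members lower for H3K36me2.

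The other choices were unit, peak threshold, window, comparison genes, members, summary over genes and alignable bases. For H3K36me2 the members' difference with UV ranged from −1.41 to −0.63 and their ratio to other chromosome 19 genes from −2.41 to −0.54, with no change of direction under any of them. Class results in 3 cases changed direction, with causes not tested. The H3K36me2 change relative to other genes became −0.0132 with peaks found in another replicate. The CTD ratio of members to other genes became 0.26 with peaks of −log10 p of 3 or more, of which there were at most 2 for each list on members. The relative CTD change became 0.00295 with the highest 0.25 of peaks by fold enrichment. With those peaks the CTD difference at gene starts was 0.51 (exact p = 0.0625). With a −log10 q of 1.3 or more, no CTD list had a covered base on the members or on the other chromosome 19 genes. No CTD ratio could therefore be computed at that threshold.

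Leaving out each replicate in turn gave ranges of −0.96 to −0.80 for the members' H3K36me2 change, 0.21 to 0.38 for the relative one and −1.24 to −1.11 for the ratio to other genes. For the CTD these were −0.0617 to 0.21, −0.25 to 0.0662 and −0.81 to −0.66, with an exact p of 0.0625 for the last, the smallest that 5 lists allow. The change turned negative without list 3 without UV, and the relative change turned positive without list 3 at 3 h. The CTD difference at gene starts ranged from 0.55 to 0.61 and that of the last coding exon from −0.0856 to 0.00574, turning positive without list 1 without UV (0.00129) or list 3 at 3 h (0.00574).

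The count of members called lower for H3K36me2, 5 as reported, was 0 without any 1 list, with untransformed percentages, with no filter, with lists centred on their medians, with genes of chromosome 19 alone and with a −log10 p of 3 or more. Centring moved the median difference of all genes tested from −0.42 to 0.31. The count was 6 without the trend (3.35% of members tested, against 3.57% of all genes tested). It was 10 with a pseudocount of 0.1 (5.59% against 8.54%) and 11 with peak centres (6.18% against 7.06%). With peaks found in another replicate it was 81 (60.9% against 41.4%). Members called higher were 1 with that pseudocount (0.559% against 0.420%) and 2 with peak centres (1.12% against 1.24%). There were 14 with peaks found in another replicate (10.5% against 6.14%). That last setting also called 6 higher (2.90% against 2.94%) and 2 lower (0.966% against 1.27%) for the CTD. It makes the replicates of a condition alike by its construction. Of the single genes, 3 differences changed sign: ZNF91 for H3K36me2 was 0.48 with centred lists, ZNF274 for the CTD −0.00325 with centred lists, and ZNF331 for the CTD −0.13 with peak centres.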
